A study of Saccharomyces cerevisiae with 4 samples.

Results

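The cells described here are yeast cells with an intermediate amount of histone H2B, those whose H2B and monoubiquitinated H2B (H2Bub) counts together lay between the low and the high population of their culture. They were chosen by this total alone, from 6000 to under 8500 unique molecular identifiers (UMIs) per cell barcode in the double-knockout strain and from 3900 to under 5200 UMIs in the wild-type strain. This window took 150 of 848 double-knockout barcodes (17.7%, exact 95% interval 15.2 to 20.4%) and 116 of 850 wild-type barcodes (13.6%, 11.4 to 16.1%). Barcodes below the window are called the low range, 395 in the double knockout and 426 in wild type, and those above it the high range, 303 in the double knockout and 308 in wild type. Cells that copy their chromatin may fall in the window, but so may other cells, since it is a range of histone content only. No DNA content, bud or marker of a cell-cycle stage was measured, so that none of these cells can be called an S-phase cell.

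Both forms of H2B were measured in single cells by tagging H2B with a DNA oligo in fixed cells, barcoding the oligo in 2 rounds of splitting and pooling, separating H2Bub from H2B on a gel and counting UMIs in each band. Both strains derive from BY4741 (MATa his3 leu2 met15 ura3) and carry a spytag and a FLAG tag at the C terminus of H2B. The double-knockout strain, with the genotype given as dub8/dub10 in the labels, lacks the deubiquitinases Ubp8 (YMR223W) and Ubp10 (YNL186W) per the text of the study, and the control is the wild-type (wt) strain. Each strain is 1 culture in rich medium (YPD), with 1 library per gel band, so that cells are not replicates, no test between cultures was possible, and the intervals given cover counting error only.

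H2B is a core histone, and new H2B is made and deposited on DNA mainly while the genome is replicated. Rad6, a ubiquitin-conjugating enzyme, and its partner ligase Bre1 attach a single ubiquitin to H2B, largely on transcribed chromatin, and is removed again by Ubp8, a subunit of the SAGA co-activator complex, and by Ubp10. Cells that are midway through replication hold both parental and newly deposited H2B. The measure followed here is the ubiquitinated fraction, H2Bub divided by the sum of H2B and H2Bub.

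Each member is known by a barcode that joins the first-round well (in capitals) to the second-round well (in lower case). The members with the lowest, the median and the highest total and with the lowest and the highest ubiquitinated fraction are shown to give the extremes on which the window rests.
Double knockout, lowest total: AGACGCTAcgagagaa
Double knockout, median total: CAACTCCAcaggttca
Double knockout, highest total: TACGGTCTtcatctcc
Double knockout, lowest fraction: CAACTCCAgagagtac
Double knockout, highest fraction: GTCGATTGagctacca
Wild type, lowest total: TCATCTCCctcagaag
Wild type, median total: CCTTCCATcttcactg
Wild type, highest total: AACCAGAGggaatgtc
Wild type, lowest fraction: GCGTTAGAcagcatac
Wild type, highest fraction: GTCGTTACcgcaacta

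In the double knockout, the member of lowest total had 3922 H2B and 2085 H2Bub UMIs, a ubiquitinated fraction of 34.7%. The member of median total had 4164 H2B and 2797 H2Bub UMIs, or 40.2%, and that of highest total had 5396 and 3097 UMIs, or 36.5%. The lowest fraction was 28.0% (27.0 to 29.0%), with 5512 H2B and 2146 H2Bub UMIs, and the highest was 46.5% (45.3 to 47.8%), with 3341 and 2907 UMIs. These members were picked as the extremes of 150, and their intervals take no account of that choice. In wild type, the members of lowest, median and highest total had 385, 543 and 596 H2Bub UMIs, or fractions of 9.87%, 12.2% and 11.5%. The wild-type extremes were 7.72% (6.93 to 8.58%), with 3824 H2B and 320 H2Bub UMIs, and 14.1% (13.0 to 15.2%), with 3423 H2B and 562 H2Bub UMIs. Every member of the wild-type window thus had a lower fraction than any member of the double-knockout window. This was not particular to the window. Over all barcodes the highest wild-type fraction was 15.1% and the lowest double-knockout fraction 28.0%.

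The members of the window came from 75 of the 96 first-round wells in the double knockout and from 65 of 95 in wild type, with at most 4 and 5 members in a well, so that no single well supplied the window. Over the whole series, the tables list 72 barcodes in both strains, of which 10 were double-knockout members and 13 wild-type members. Without them the slope of the fraction across the window, described below, was -1.54 points per 1000 UMIs in the double knockout and -0.639 in wild type. Barcodes held by more than 1 cell are expected to number 40.2 in the double knockout and 40.4 in wild type, from the count of barcodes seen among 9216 possible combinations. Of all pairs of barcodes of a strain, 5.67% in the double knockout and 4.45% in wild type summed to a total inside the window, so that 2.28 and 1.80 members, or 1.52% and 1.55% of the window, are expected to be such pairs.

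The window lay at the low point of the histone content in both strains. In the double knockout, the density of the log2 total had peaks at 5378 and 10510 UMIs, 1.95-fold apart, and a valley at 7717 UMIs, where it fell to 74.1% of the upper peak. In wild type, the peaks stood at 3282 and 6374 UMIs, 1.94-fold apart, with a valley at 4669 UMIs and 66.3% of the upper peak. Relative to the lower peak, the window ran from 1.12- to 1.58-fold in the double knockout and from 1.19- to 1.58-fold in wild type. The upper edges thus match between the strains, while the double-knockout window reaches further into the flank of the lower peak.

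**Figure D1:**
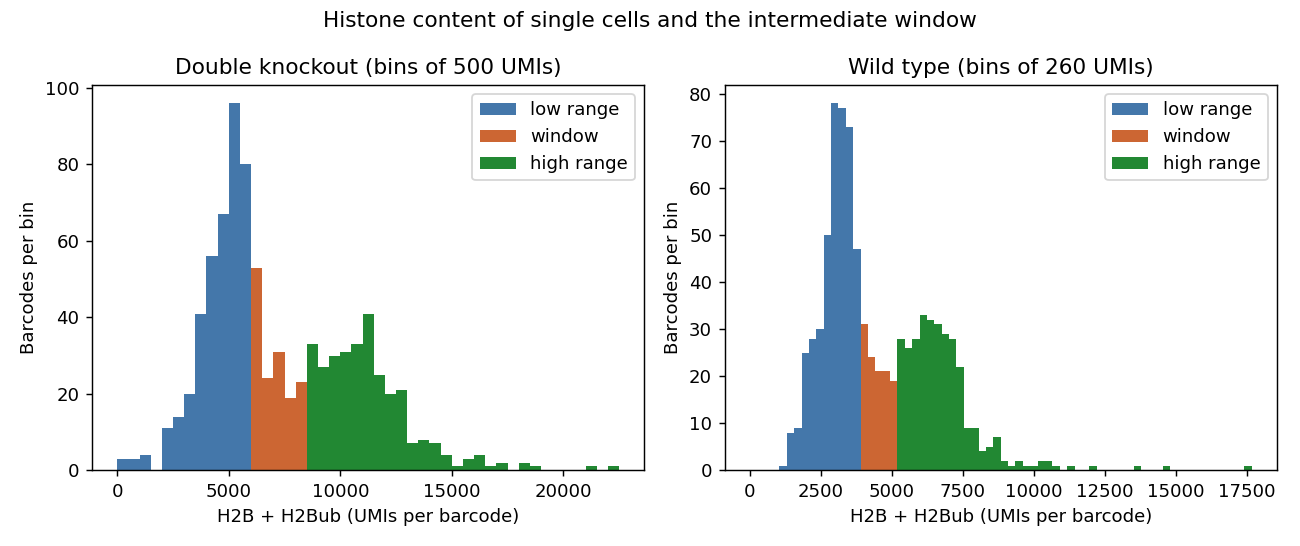
Barcodes per bin (y axis) by the sum of H2B and H2Bub UMIs (x axis) in the double knockout (left, bins of 500 UMIs) and wild type (right, bins of 260 UMIs), colored by range. The 150 double-knockout and 116 wild-type barcodes of the window fill the dip between the peaks, and the lowest bin of each window holds the most members.

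Within the window, the barcodes thinned out from the lower edge. The window was divided into 5 sub-windows of equal width, 500 UMIs in the double knockout and 260 UMIs in wild type. From low to high total they held 53, 24, 31, 19 and 23 barcodes in the double knockout, and 31, 24, 21, 21 and 19 in wild type. The bin of the same width just below the window held 80 double-knockout and 47 wild-type barcodes, and the bin just above it 33 and 28. A fit of 2 overlapping Gaussian populations to the log2 total of all barcodes placed 182.2 double-knockout and 146.9 wild-type barcodes in the window. The observed numbers were 0.823 (0.706 to 0.951) and 0.790 (0.660 to 0.934) of the fitted ones. With 3 populations the observed number was 0.921 of the fitted one in the double knockout and 0.941 in wild type. The Bayesian information criterion was lower (better) with 3 populations than with 2. It was 1699 against 1821 in the double knockout and 1541 against 1568 in wild type. These fits used the same totals that set the window, its own barcodes included, so that the numbers are a description only. The lower population of the double-knockout fit with 2 populations held 80.6% of the barcodes, was broad and was centred at 5850 UMIs, just below the window. With the window narrowed by 10% at each edge the observed number was 0.691 of the number from that fit.

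Cells of the double-knockout window had 4314 ± 611 (SD, n = 150 barcodes) H2B UMIs and 2714 ± 321 H2Bub UMIs. The H2B counts ran from 3339 to 5745 with a median of 4262.5, and the H2Bub counts from 2025 to 3566 with a median of 2727.5. Cells of the wild-type window had 4009 ± 354 (SD, n = 116 barcodes) H2B UMIs and 479.9 ± 57.3 H2Bub UMIs. Their H2B counts ran from 3380 to 4711 with a median of 3980.5, and their H2Bub counts from 320 to 641 with a median of 483. H2Bub did not overlap between the windows of the strains, and its mean was 5.66-fold higher in the double-knockout window, whereas H2B differed 1.08-fold. Over all barcodes H2Bub did overlap, with a lowest double-knockout count of 153 and a highest wild-type count of 1717 UMIs. The fold of mean H2Bub was 5.74 in the low and 5.75 in the high range, so that it was not particular to the window. Since the windows were set at different totals, the folds of H2B and H2Bub and the lack of overlap follow in part from the edges.

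The ubiquitinated fraction of the summed counts was 38.6% (38.5 to 38.7%) in the double-knockout window and 10.7% (10.6 to 10.8%) in the wild-type window, 3.61-fold higher in the double knockout. In the low and high ranges, the fold between the strains was 3.72 and 3.49. Over single barcodes of the window, the fraction was 38.8 ± 3.72% (SD) in the double knockout, with quartiles of 36.1 and 41.6%, and 10.7 ± 1.13% in wild type, with quartiles of 9.94 and 11.4%.

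In the double knockout, the window stood between the outer ranges but closer to the high one. Its fraction of 38.6% compares with 42.9% in the low range and 37.6% in the high range. The difference was -4.28 percentage points (-4.39 to -4.16) from the low range and 1.03 points (0.920 to 1.13) from the high range. The window thus stood 80.7% of the way from the low to the high range. In units of the SD between cells of the window, these differences were -1.15 and 0.276. With the window set from the H2Bub count alone, which stands in the numerator, the differences were -0.734 points from the low range and 2.69 points from the high range.

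In wild type, the fraction of the window did not lie between the outer ranges. The value was 10.7% in the window, against 11.5% in the low range and 10.8% in the high range. The window differed by -0.843 points (-0.944 to -0.742) from the low range, or -0.744 of the SD between its cells. It differed by -0.0951 points (-0.189 to -0.00125) from the high range, which is -0.0839 of that SD and changed sign with the window widened, set from H2Bub or compared within first-round wells. The wild-type window and the high range were thus not separated beyond the processing.

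**Figure D2:**
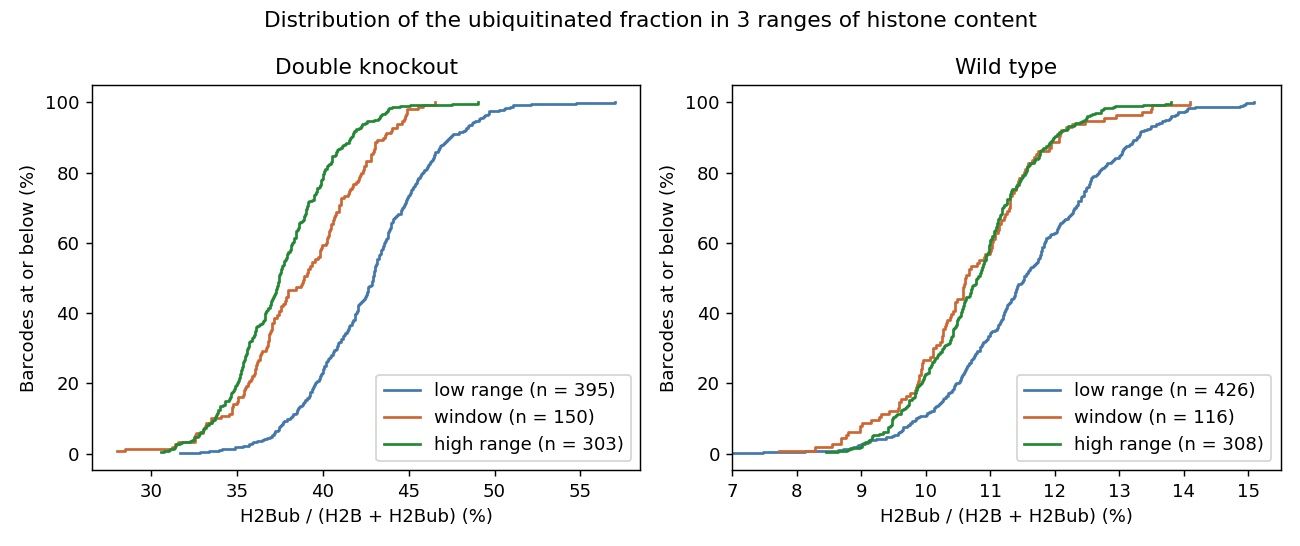
Cumulative share of barcodes (y axis) by ubiquitinated fraction (x axis) in the low range, the window and the high range of the double knockout (left) and wild type (right). The double-knockout window, with a median of 38.9%, runs between the outer ranges, while the wild-type window, with a median of 10.6%, overlies the high range; a low-range wild-type barcode with no H2Bub UMI lies left of the axis.

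The fraction moved within the double-knockout window itself, and mostly in its lower part. From low to high total, the sub-windows had summed fractions of 40.4%, 39.1%, 37.8%, 37.3% and 37.2%, each with a counting interval of 0.247 points or less on either side. These intervals leave out the spread between cells, with SDs of 3.14 to 4.11 points over 19 to 53 barcodes. Whether neighbouring sub-windows differ beyond that spread was not tested. The bin of 5500 to under 6000 UMIs just below the window had 42.4%, and the bin of 8500 to under 9000 UMIs just above it 37.4%. The fraction thus fell by 4.64 points between the bin below the window and the third sub-window, and fell by 0.609 points more over the rest of the window. In the 5 bins above the window the summed fraction kept to 37.1 to 38.0%.

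The least-squares slope in the double-knockout window was -1.64 points per 1000 UMIs of total (-1.76 to -1.52), with Pearson's r = -0.337 and Spearman's rho = -0.321 across 150 barcodes, which share a culture and libraries and are not replicates. The interval of the slope leaves out the spread between cells, which had an SD of 3.51 points around the fitted line. In bands as wide as the window, the slope was 0.104 (-0.0125 to 0.220) just below it and -0.0665 (-0.171 to 0.0383) just above it. The band below was not level, however. Its 5 bins had summed fractions of 41.6%, 43.1%, 43.9%, 43.2% and 42.4% from low to high total, so that it already fell by 1.46 points between the bin that starts at 4500 UMIs and the last bin before the window. The total contains the H2B count that also lowers the fraction, in these bands as in the window. When the window was set from H2B alone the slope was -0.889, and when it was set from H2Bub alone, scaled to the same total, it was -4.20. It kept its sign within wells, at -1.53 for first-round and -1.35 for second-round wells. The 150 members lay in 75 first-round and 76 second-round wells, with at most 4 and 5 in a well. A member alone in its well adds nothing to these slopes.

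In wild type, the movement was smaller and uneven. The sub-windows had 11.1%, 10.5%, 10.7%, 10.8% and 10.3% from low to high total, against 11.3% in the bin below the window and 10.8% in the bin above it. The fraction fell by 0.592 points between the first and the second sub-window and fell by 0.492 points between the fourth and the last, and the third and the fourth were higher than the second. The SD between cells was 0.701 to 1.53 points in these sub-windows of 19 to 31 barcodes. Whether the steps exceed that spread was not tested. The slope was -0.593 points per 1000 UMIs (-0.813 to -0.372), with r = -0.200 and rho = -0.212 across 116 barcodes. It was -0.218 with the window narrowed by 10% at each edge, -0.210 within second-round wells and -0.0785 with the window set from H2B alone, so that its size rests on these choices. In the bands beside the window the wild-type slope was -0.450 (-0.630 to -0.270) below and 0.0107 (-0.162 to 0.183) above, so that the wild-type fall was not limited to the window.

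**Figure D3:**
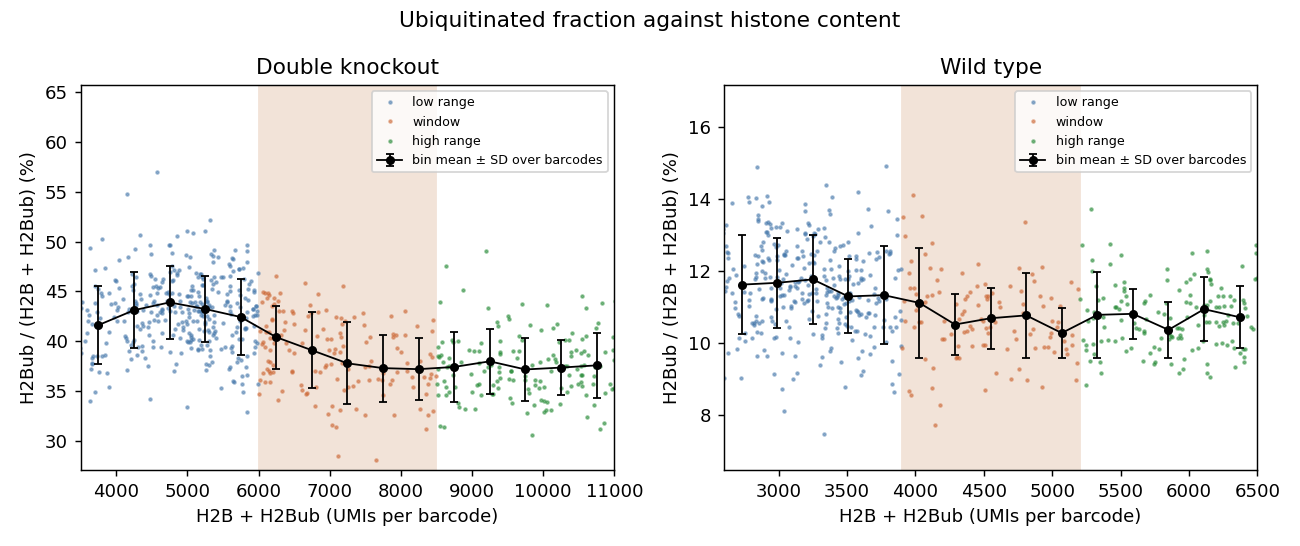
Ubiquitinated fraction (y axis) by the sum of H2B and H2Bub UMIs (x axis) for single barcodes (dots) of the double knockout (left) and wild type (right), with the mean ± SD over barcodes of each bin in black and the window shaded. In the double knockout the bin means step down from 42.4% just below the window to 37.2% in its last bin and then stay level, while the wild-type means from the bin below the window to its last bin lie between 10.3 and 11.3%.

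Seen as counts, H2Bub lagged behind H2B on the way into the double-knockout window. The mean H2B was 3317 UMIs in the bin below the window and 3705, 4138, 4485, 4865 and 5211 UMIs in the sub-windows. The mean H2Bub was 2443 UMIs in the bin below and 2511, 2655, 2723, 2893 and 3082 UMIs in the sub-windows. Up to the third sub-window, H2B was thus 35.2% higher than below the window and H2Bub 11.4% higher. H2Bub made up 19.3% of the histone that separated these bins, 33.1% of that between the third and the last sub-window, and 42.4% of that between the last sub-window and the bin above.

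Over all members, each 1000 additional UMIs of total in the double-knockout window came with 269 H2Bub UMIs (261 to 278), against a mean of 386 per 1000 in the same cells. In the band below the window it was 428 (422 to 433) against a mean of 430, and in the band above 368 (358 to 378) against a mean of 375. The line through the band below averages over a climb and a fall of the fraction. H2Bub made up 35.5% of the histone that separated the bins of 4500 to under 5000 and of 5500 to under 6000 UMIs. A share under the mean was thus present below the window too. With the window set from H2B alone the value was 323 and from H2Bub alone 239.

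In wild type, H2Bub per 1000 additional UMIs was 80.7 (70.7 to 90.7) in the window, against a mean of 107. In the band below it was 99.97 (94.2 to 106), against a mean of 115, and in the band above 109 (98.8 to 119), against a mean of 107. The wild-type value in the window was 97.3 with narrowed edges, 99.9 within second-round wells and 104 with the window set from H2B, all closer to the mean. Between the bin below the window and the last sub-window, mean wild-type H2B ran from 3342 to 4548 UMIs and mean H2Bub from 427 to 521 UMIs.

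**Figure D4:**
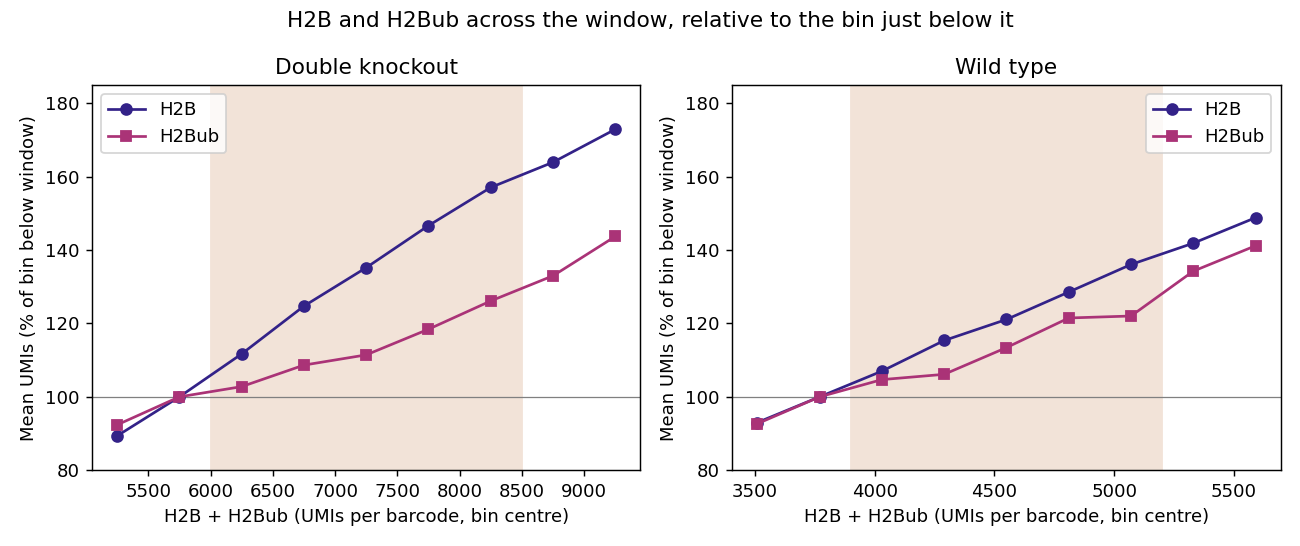
Mean H2B and H2Bub UMIs per bin as a percentage of the bin just below the window (y axis) by total (x axis), in the double knockout (left) and wild type (right), with the window shaded. In the third double-knockout sub-window H2B stands 35.2% and H2Bub 11.4% above the bin below, whereas the wild-type lines lie closer, at 21.1% and 13.4%.

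Whether the window holds cells on a graded passage or a mixture of low and high cells was then described from the spread. The SD of the fraction was 3.72 points in the double-knockout window, 6.37 times the counting SD of 0.584, and 1.13 points in the wild-type window, 2.45 times the counting SD of 0.463. The SDs of the low and high ranges were 3.71 and 3.10 points in the double knockout and 1.41 and 0.952 points in wild type. The spread of the window was thus no wider than that of the low range in wild type, and nearly equal to it in the double knockout. The SD of the wild-type low range is widened by 1 barcode with no H2Bub UMI. This barcode also enters the later wild-type values that rest on that SD. In the band just below the wild-type window, which does not hold it, the SD was 1.25 points. Centring within first-round wells left 5.57 and 1.85 times the counting SD. No correction was made for the number of wells fitted, which by itself lowers this spread.

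A mixture of low-range and high-range cells with the mean of the double-knockout window would need 22.8% low-range cells and have an SD of 3.92 points. The observed SD was 0.948 of this, and it was 3.51 points around the fitted line. In the first sub-window the observed SD was 3.18 points against 4.32 points for a mixture, in the second 3.81 against 4.06, and in the third 4.11 against 3.29. The upper 2 sub-windows, with SDs of 3.37 and 3.14 points, had means of 37.28% and 37.18%, close to the 37.56% of the high range, so that no low-range share could be computed for them. A mixture with few or no low-range cells cannot be told apart from these means. The SD was thus below that of a mixture in the first and second sub-windows and above it in the third. These SDs rest on 53, 24 and 31 barcodes and carry no interval. Whether they differ from a mixture beyond sampling was not tested.

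**Figure D5:**
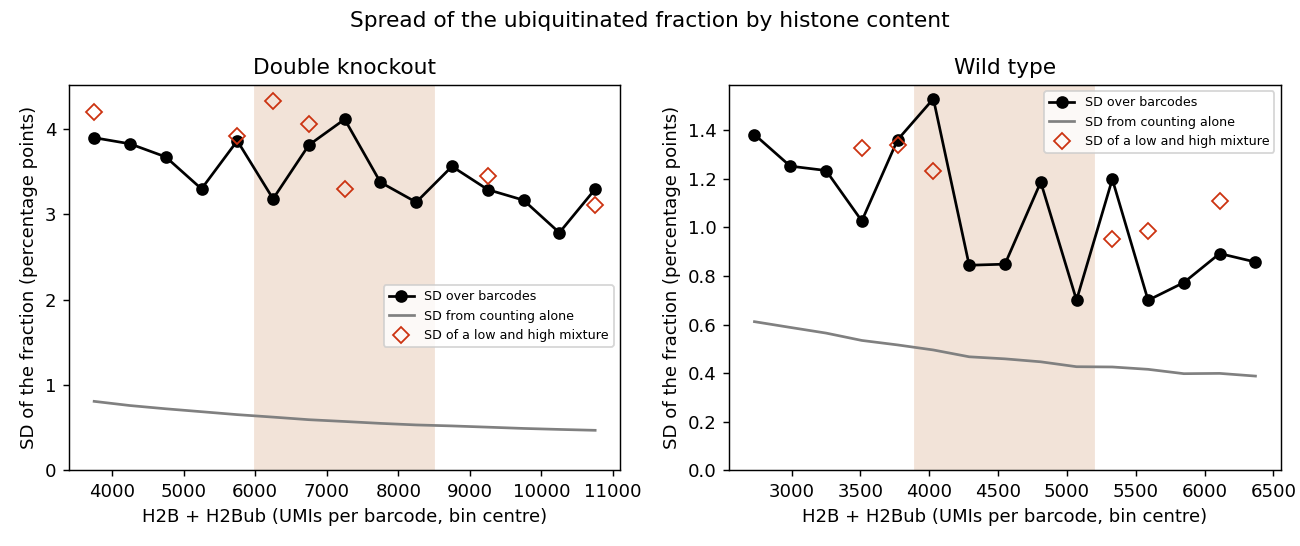
SD of the ubiquitinated fraction over barcodes (black), SD from counting alone (gray) and SD of a mixture of low-range and high-range cells with the mean of that bin (open diamonds, drawn only where the bin mean lies between those ranges) in percentage points (y axis), by total (x axis), in the double knockout (left) and wild type (right). In the first double-knockout sub-window the SD of 3.18 points lies below the 4.32 points of a mixture, and in the third the SD of 4.11 points lies above 3.29 points.

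The shape of the distribution was described as well, but it cannot decide between a single group and a pair. A Gaussian fit with 2 components had a Bayesian information criterion 10.9 higher (worse) than that with 1 component in the double-knockout window, and 14.1 higher in the wild-type window. The outer ranges lie only 1.53 SDs apart in the double knockout and 0.641 SDs in wild type. A fit with 1 component can thus be preferred even where a mixture is present. A kernel density of the double-knockout window had a pair of shallow peaks at 36.9% and 40.5%, with a dip to 95.8% of the lower peak between them, and that of the wild-type window had a single peak at 10.6%. Between the medians of the low and high ranges lay 68 of 150 double-knockout members, or 45.3%, while 43.0% of the low range and 44.9% of the high range lay there too. A further 21 members were above the low-range median of 42.9% and 61 below the high-range median of 37.5%.

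The share of high-fraction cells was lower in each successive sub-window of the double knockout, but neighbouring sub-windows were not resolved. The exact interval of the share was 40.4 to 68.4% in the first, 19.2 to 54.6% in the third and 7.46 to 43.7% in the last, and those of neighbours overlap. Above 40.2%, the midpoint of the low and high means, were 29 of 53, 11 of 24, 11 of 31, 5 of 19 and 5 of 23 barcodes from the first to the last sub-window, or 54.7%, 45.8%, 35.5%, 26.3% and 21.7%. Just below the window the share was 70.0%, and in the 5 bins above it 9.09 to 24.2%. With each barcode of the window thinned to 6000 UMIs, the shares were 54.1%, 43.7%, 33.6%, 24.1% and 21.2%. Both a shift of all cells and a changing mixture would lower this share. The outer ranges are only 1.53 SDs apart in the double knockout and 0.641 SDs in wild type, so that the fraction alone cannot tell a graded passage from a mixture.

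In wild type, the mean of the window, 10.71%, lay below the means of both outer ranges, 11.55% in the low and 10.78% in the high range. The gap to the high range, however, is small beside the SD of 1.13 points between cells, and a mixture made almost wholly of high-range cells cannot be told apart from the window. The share above the midpoint of 11.2% was 51.6% in the first sub-window, where the SD was 1.53 points, and 15.8 to 38.1% in the others. The first wild-type sub-window was the widest of the 5, with members from 7.72 to 14.1%, and 1.53 points is more than the 1.23 points of a mixture. That SD rests on 31 barcodes, and whether it differs from a mixture beyond sampling was not tested.

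Barcodes within 100 UMIs of the edges are given to show how sharply the limits cut. In the double knockout, 11 barcodes inside the lower edge had 39.7% and 17 outside had 42.1%, and 8 inside the upper edge had 37.8% and 11 outside 37.8%. In wild type, 13 barcodes inside the lower edge had 11.3% and 20 outside 11.1%, and 8 inside the upper edge had 10.2% and 13 outside 10.9%. The gap of the double-knockout lower edge was less than the SD of 3.67 points between the cells inside it.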

How the data were processed

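H2B and H2Bub were measured in 1 culture each of the double-knockout and the wild-type strain, from 4 libraries made from 10% of the gel-extracted material. The deposited values are counts. Per the methods, the authors dropped reads with more than 1 mismatch in the constant oligo region and joined the barcodes of both rounds (8 nt each). Reads whose joined barcode was not among the 9216 combinations were also dropped. The authors then chose real-cell barcodes by their reads and counted unique UMIs of 12 nt. The counting tool is not given in the sources used here. Reads from the other band or from barcode errors would add UMIs to a barcode. The tables hold 3803975 H2B and 2462422 H2Bub UMIs in the double knockout and 3455421 and 427779 UMIs in wild type, and no barcode was filtered or normalized.

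Fractions of summed counts and shares carry exact Clopper-Pearson intervals, and differences and slopes carry intervals propagated from binomial counting error, all at 95%. Observed over fitted numbers carry the interval of the observed share. Mixtures were fitted with 10 starts. No p-value was computed. Named items were H2B and H2Bub, and barcodes at the extremes and the median. Alternatives changed the edges, the count that sets the window (at the same ranks), the summary, the background, the wells, the barcodes left out and the mixture. The bands beside the window and 2 alternatives, leaving out shared barcodes or a sub-window of under 20 barcodes, were added after seeing the data. The members and lists were chosen with earlier results of these data known. Functions were tested on simulated barcodes. Mixtures used scikit-learn 1.9.0, intervals SciPy 1.17.1 and plots Matplotlib 3.10.9, under Python 3.11.15 with pandas 2.3.3 and NumPy 2.4.6.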

Additional observations from a re-analysis of the deposited data

Results flagged for a closer look

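The window differed from the high range in opposite directions in the strains. The ubiquitinated fraction of the window was 1.03 percentage points above the high range in the double knockout and -0.0951 points from it in wild type, that is, below it. The difference between the strains was not tested, since each strain is 1 culture. The wild-type value changed sign under 3 alternatives, whereas the double-knockout value stayed positive under all that were run.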

How the results depend on the processing

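There are no replicate cultures, so that a value counted as kept when an alternative stayed inside its counting interval, within 10% for the spread over counting error, or within 1.5 times for the number of members. Of 122 values under alternatives, 65 stayed, 54 moved and 3 reversed, and since summed counts have narrow intervals many of the moves are small. The cause was not tested. No paired analysis was possible because each strain is 1 culture with no replicate number. Taking off background leaves H2Bub per 1000 additional UMIs unchanged by construction. Leaving out barcodes under 1000 or over 9000 H2B UMIs removed no member of the window, so that its fraction could not change. The slope kept its negative sign in both strains under every alternative run. Depth gives a counting SD per barcode of 0.584 points in the double knockout and 0.463 points in wild type, and the sub-windows hold 19 to 53 barcodes each.

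In the double knockout, narrowed edges gave a fraction of 38.5%, -4.14 points against the low range, a slope of -1.42, 289 H2Bub per 1000 added UMIs and 0.691 of the fitted number of barcodes. Widened edges gave 39.0%, -3.99 and 1.45 points against the low and high ranges and 0.974 of the fitted number. The window from H2B gave 38.9%, 1.54 points against the high range, a slope of -0.889, 323 per 1000 and a spread of 5.69 times counting. The window from H2Bub gave 40.5%, -0.734 and 2.69 points, a slope of -4.20, 239 per 1000 and 8.60 times. Means of barcodes gave 38.8%, -4.04 and 1.19 points, and 25 UMIs off H2Bub gave 38.4%. First-round wells gave -3.94 and 1.43 points and 5.57 times. Second-round wells gave -4.05 and 1.37 points, a slope of -1.35, 291 per 1000 and 5.33 times. Without shared barcodes it was 38.8%, -3.96 and 1.20 points and 279 per 1000, and without the sub-window of 19 barcodes 38.8%.

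In wild type, narrowed edges gave a slope of -0.218 and 97.3 per 1000, and widened edges 10.8% and 0.00991 points against the high range. The window from H2B gave a slope of -0.0785 and 104 per 1000. The window from H2Bub gave 11.1%, -0.171 and 0.188 points against the low and high ranges, a slope of -0.892 and 2.74 times counting. With 25 UMIs off H2Bub it was 10.2%, -0.595 and -0.266 points. First-round wells gave 0.111 points against the high range and 1.85 times, and second-round wells a slope of -0.210 and 99.9 per 1000. Without the sub-window of 19 barcodes the fraction was 10.8%, and 3 components gave 0.941 of the fitted number.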
